A study of Gallus gallus with 5 samples.

Results

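The proteasome is the protease that degrades proteins tagged with ubiquitin. Its 20S core is a barrel of rings of alpha subunits (PSMA genes) outside and beta subunits (PSMB genes) inside, and some of the beta subunits cut proteins. The 19S particle caps the core. Its base holds the ATPases (PSMC genes) that unfold substrates, and its lid and the rest of the base (PSMD genes) bind ubiquitin, remove it and hold the particle together. Dedicated chaperones assist assembly and are not part of the finished particle: PSMG1 to PSMG4 act on the core, and PSMD5, PSMD9 and PSMD10 act on the base. In mammalian cells the subunit genes are transcribed together under the factor NFE2L1 when proteasome activity is short.

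The genes described here were all genes whose symbol begins with PSM, a letter from A to G and a number. The RefSeq table of the chicken lists 40 such symbols. A deposited row was matched to 32 of them, of 10102 genes in all, and each of the 32 was represented by 1 transcript row. They comprised 22 subunits of the 26S particle (core plus cap), 7 assembly chaperones, and 3 activators or inhibitors of the core. Among the 22 subunits were all 7 alpha subunits, 4 beta subunits (PSMB1, PSMB2, PSMB4 and PSMB7), 4 ATPases (PSMC1, PSMC2, PSMC3 and PSMC6), 3 other base subunits (PSMD1, PSMD2 and PSMD4) and 4 lid subunits (PSMD3, PSMD6, PSMD12 and PSMD14). PSMB3, PSMB5, PSMC5, PSMD7, PSMD11, PSMD13 and PSME1 were not analysed here, nor was PSMC3IP, which shares the prefix but encodes a recombination cofactor and no subunit. The RefSeq table has no entry for PSMB6, PSMC4, PSMD8 and PSME2, so these were not analysed either.

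RNA-seq of poly(A)-selected RNA was carried out on the chicken blastoderm, the flat embryo that a freshly laid egg carries on its yolk. Blastoderms had been stored for 7 days at 4 °C, at 16 °C or at 24 °C, incubated for 4 h at 37 °C, or left unstored. The series title concerns dormancy, the halt of development in a cooled egg. Each condition was represented by 1 library, and the sources used here do not give the strain or the number of blastoderms in a library. No p-value or replicate error can therefore be given, and every difference below lies between single libraries. The 4 comparisons with the unstored state share the unstored library.

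Values are FPKM, fragments per length of transcript, scaled by the number of mapped fragments, so levels can be set side by side between genes. The number of reads behind a value is unknown. A difference is that of log2(FPKM + 1), and genes with FPKM of at least 1 in any library were compared, 7733 in all. Differences of 2 sizes were counted, at least 1.5-fold and at least 2-fold, with FPKM above 0 in both libraries. The median difference of all genes from the unstored library was 0.10 at 4 °C, -0.04 at 16 °C, 0.04 at 24 °C and 0.12 after incubation.

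Markers of the epiblast, the upper layer of the blastoderm, were present in all 5 libraries, apart from SOX2 at FPKM 0.09 to 0.33. Storage at 16 and 24 °C went with a lower sum. The FPKM of 8 epiblast markers summed to 1498 at 4 °C, 590 at 16 °C, 596 at 24 °C and 1244 after incubation, against 1461 in the unstored library, and none was at 0. NANOG, the defining pluripotency factor, had FPKM 518, 225, 223 and 357 in those 4 libraries in that order, against 526 in the unstored library. Of the 7 epiblast markers compared, 7 had negative differences at 16 °C and 6 at 24 °C, where CDH1 was at 0.21. After incubation 3 were negative and 4 positive, with a median of 0.04. The 7 markers of hypoblast and endoderm, the lower layer, summed to 175 at 4 °C, 153 at 16 °C, 263 at 24 °C and 216 after incubation, against 79.9 in the unstored library. APOA1 carried much of that sum, with FPKM 113 at 16 °C and 198 at 24 °C, against 21.4 in the unstored library. Without APOA1, a sum chosen after seeing the data, the other 6 came to 128 at 4 °C, 40.1 at 16 °C, 65.0 at 24 °C and 113 after incubation, against 58.5 in the unstored library, so the direction at 16 °C turned. At 16 °C, 4 of the 7 had negative differences, with a median of -0.06. The 6 white blood cell markers summed to 5.86 at 4 °C, 23.3 at 16 °C, 25.6 at 24 °C and 12.3 after incubation, against 4.20 in the unstored library. LCP1 made up most of the sum at 16 and 24 °C, with FPKM 18.5 and 21.1, against 1.79 in the unstored library. PTPRC was also highest there, at 1.24 and 1.07, but CD3E was highest after incubation, at 4.28. CD4, SPI1 and CD74 stayed under FPKM 1 in every library. The 9 egg white and oviduct markers summed to 5.33 at 4 °C, 13.6 at 16 °C, 34.7 at 24 °C and 9.36 after incubation, against 6.62 in the unstored library. TF and AVD made up most of the sum at 16 and 24 °C, with FPKM 4.25 and 14.6 for TF and 6.24 and 11.55 for AVD. SPP1 was at 5.99 at 24 °C, and LYZ was at most 0.76 in any library. The 7 erythroid markers summed to between 5.29 and 9.59 and the 2 muscle markers, TNNT3 and MYOD1, to at most 0.84. Neural markers were not analysed here. Ovalbumin (OVAL) had FPKM of at most 0.05 in any library. The part of these cells in the differences below was not tested, and in bulk RNA fewer cells of a type and less RNA per cell cannot be told apart.

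The 22 subunit transcripts with a PSM name were abundant, and in deposited FPKM they stayed within a narrow band. Their median FPKM was 99.4 at 4 °C, 99.2 at 16 °C, 107.9 at 24 °C and 83.7 after incubation, against 94.6 in the unstored library. Together they made up 0.587% of all FPKM at 4 °C, 0.744% at 16 °C, 0.706% at 24 °C and 0.553% after incubation, against 0.595% in the unstored library. The highest library exceeded the lowest by 1.09-fold to 1.87-fold per subunit, with a median of 1.38-fold, and for 18 of the 22 the factor stayed under 1.5. Over the 2216 genes whose mean FPKM lay within the subunits' range, 24.2 to 221, the median factor was 1.72, and it stayed under 1.5 for 712. These factors were not computed under other scalings. With rescaling to equal totals, PSMA6, PSMB4 and PSMB7 also differed from unstored by at least 1.5-fold at 16 or 24 °C. Outside the 22 stood the subunits without a PSM name, ADRM1, from FPKM 78.2 to 194, and SEM1, from 15.9 to 25.6.

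**Figure D1:**
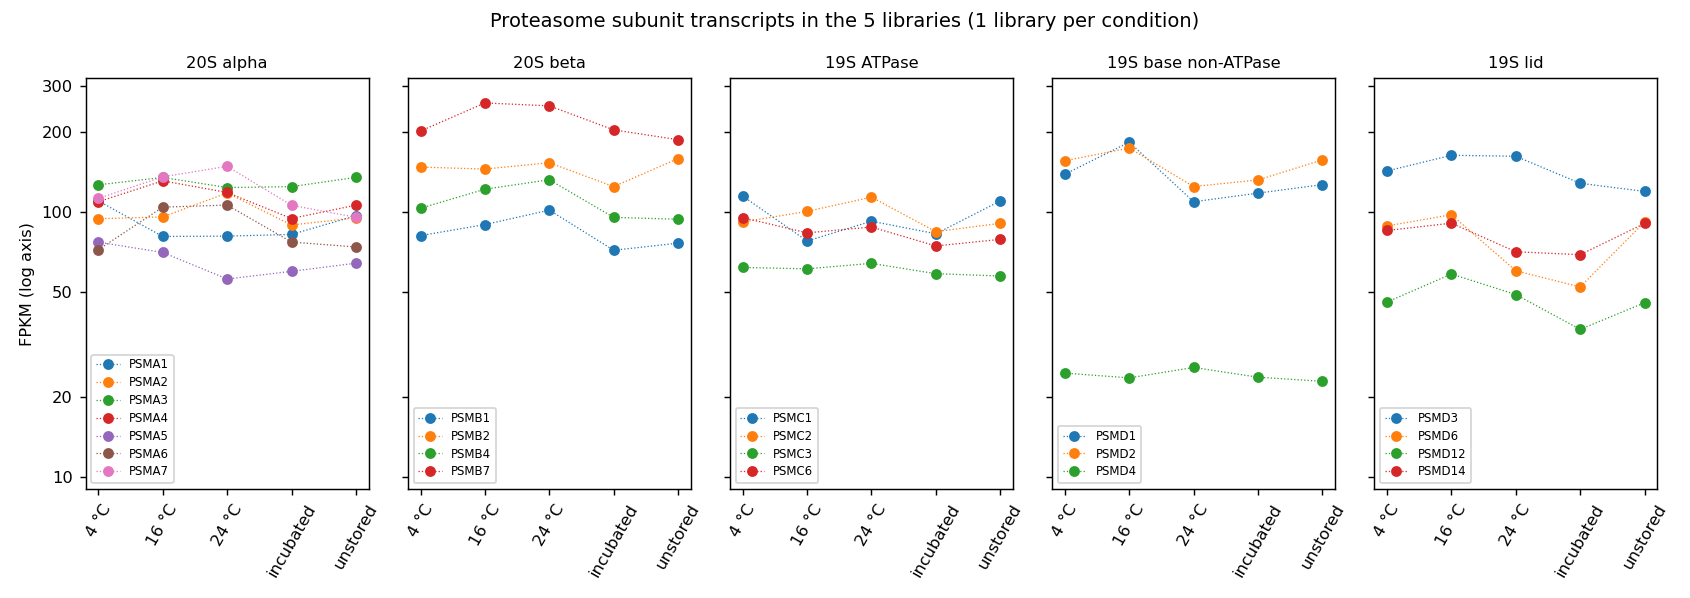
FPKM of the 22 measured proteasome subunits (log axis) in the libraries stored at 4, 16 and 24 °C, incubated and unstored, with 1 panel per role and 1 colour per gene; dotted lines only join the points of a gene. PSMB7 lies highest and PSMD4 lowest in every library.

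Among the alpha subunits, which form the outer rings and the gate of the core, levels lay between FPKM 55.9 and 149 in all libraries. PSMA3 had the highest mean and was the steadiest subunit, with FPKM 127 at 4 °C, 135 at 16 °C, 124 at 24 °C and 125 after incubation, against 135 in the unstored library. PSMA5 had the lowest mean, with FPKM 77.0 at 4 °C, 70.5 at 16 °C, 55.9 at 24 °C and 59.8 after incubation, against 64.2 in the unstored library. The ring's members did not shift by the same amount. PSMA7 had FPKM 113 at 4 °C, 136 at 16 °C, 149 at 24 °C and 106 after incubation, against 95.7 in the unstored library (log2 difference 0.63 at 24 °C). PSMA1 had FPKM 110.3 at 4 °C, 80.9 at 16 °C, 81.2 at 24 °C and 82.4 after incubation, against 96.9 in the unstored library. The ratio of PSMA7 to PSMA1 was thus 1.02 at 4 °C, 1.68 at 16 °C, 1.83 at 24 °C and 1.29 after incubation, against 0.99 in the unstored library. PSMA6 resembled PSMA7, with differences of 0.49 at 16 °C and 0.52 at 24 °C, while PSMA2 and PSMA4 had differences between -0.17 and 0.31 in the 4 comparisons with unstored.

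The beta subunits include PSMB7, which carries the trypsin-like activity, and PSMB1, PSMB2 and PSMB4, which have no catalytic site. PSMB7 was the most abundant transcript of the whole set, with FPKM 203 at 4 °C, 259 at 16 °C, 252 at 24 °C and 205 after incubation, against 188 in the unstored library. Its values at 16 °C and 24 °C were the highest of the 5 (log2 differences 0.46 and 0.42). PSMB4 (0.37 and 0.49) and PSMB1 (0.23 and 0.41) were also higher at 16 and 24 °C, with PSMB1 at FPKM 81.6 at 4 °C, 89.8 at 16 °C, 102 at 24 °C and 71.8 after incubation, against 76.4 in the unstored library. PSMB2 differed from them. It had FPKM 148 at 4 °C, 146 at 16 °C, 154 at 24 °C and 125 after incubation, against 159 in the unstored library, so the unstored value was its highest. With rescaling to equal totals, all 4 beta subunits were higher than unstored at 16 and 24 °C. The direction of PSMB2 there thus depended on the scaling.

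The ATPases, which thread unfolded proteins into the core, lay between FPKM 57.4 and 115 in all libraries, and none reached a 1.5-fold difference from unstored. PSMC2 had FPKM 91.8 at 4 °C, 101 at 16 °C, 114 at 24 °C and 84.4 after incubation, against 90.7 in the unstored library. PSMC3 varied least of the 4, with FPKM 61.8 at 4 °C, 61.1 at 16 °C, 64.1 at 24 °C and 58.6 after incubation, against 57.4 in the unstored library. PSMC6 was highest at 4 °C, with FPKM 95.3 there, 83.5 at 16 °C, 87.9 at 24 °C and 74.5 after incubation, against 78.9 in the unstored library. With rescaling to equal totals, 3 of the 4 ATPases, PSMC6 among them, were higher at 16 and 24 °C than at 4 °C. That rank of PSMC6 thus depended on the scaling. PSMC1 was the lowest of the ATPases relative to unstored at 16 °C, with a log2 difference of -0.50, with -0.25 at 24 °C and -0.41 after incubation.

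Of the other base subunits, PSMD1 and PSMD2 are the large scaffold proteins and PSMD4 is a ubiquitin receptor. The scaffolds had their highest FPKM at 16 °C and their lowest at 24 °C, although with rescaling to equal totals all 3 of these genes were higher at 24 °C than after incubation. PSMD1 had FPKM 139 at 4 °C, 184 at 16 °C, 109 at 24 °C and 118 after incubation, against 127 in the unstored library. PSMD2 had FPKM 156 at 4 °C, 175 at 16 °C, 125 at 24 °C and 132 after incubation, against 158 in the unstored library. PSMD4 was the least abundant measured subunit with a PSM name, at FPKM 24.7 at 4 °C, 23.7 at 16 °C, 25.9 at 24 °C and 23.8 after incubation, against 23.0 in the unstored library.

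In the lid, PSMD14 is the deubiquitinase that removes the ubiquitin chain, and PSMD3, PSMD6 and PSMD12 are structural. Of the measured subunits with a PSM name, PSMD6 had the largest difference from unstored. It had FPKM 88.7 at 4 °C, 97.8 at 16 °C, 60.1 at 24 °C and 52.2 after incubation, against 91.7 in the unstored library. Its log2 difference was -0.60 at 24 °C and -0.80 after incubation, while 4 °C and 16 °C lay close to unstored. PSMD14 had the same order at smaller size, with FPKM 85.3 at 4 °C, 90.9 at 16 °C, 70.9 at 24 °C and 69.1 after incubation, against 90.7 in the unstored library. PSMD12, the lowest measured lid member with a PSM name, had FPKM 45.8 at 4 °C, 58.4 at 16 °C, 48.8 at 24 °C and 36.1 after incubation, against 45.5 in the unstored library. PSMD3, the highest measured lid member, had FPKM 143 at 4 °C, 164 at 16 °C, 163 at 24 °C and 129 after incubation, against 119.8 in the unstored library. The unstored value of PSMD3 was the lowest of the 5, and the ratio of PSMD3 to PSMD6 was 1.61 at 4 °C, 1.68 at 16 °C, 2.71 at 24 °C and 2.46 after incubation, against 1.31 in the unstored library. With median-ratio size factors, 0 of these 4 lid subunits were higher after incubation than unstored. The unstored value of PSMD3 was then not its lowest.

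Among the chaperones that build the core, PSMG2 and PSMG3 had the largest differences of all members at 16 and 24 °C. PSMG1 and PSMG2 form a heterodimer, as do PSMG3 and PSMG4, and both dimers help the alpha subunits close into a ring. PSMG3 had FPKM 28.5 at 4 °C, 5.98 at 16 °C, 6.68 at 24 °C and 25.0 after incubation, against 22.0 in the unstored library. Its log2 difference from unstored was -1.72 at 16 °C and -1.58 at 24 °C. PSMG2 had FPKM 27.6 at 4 °C, 9.76 at 16 °C, 10.7 at 24 °C and 19.7 after incubation, against 27.3 in the unstored library (differences of -1.40 at 16 °C and -1.27 at 24 °C). PSMG1 had FPKM 18.8 at 4 °C, 9.69 at 16 °C, 11.2 at 24 °C and 17.6 after incubation, against 16.2 in the unstored library (differences of -0.68 at 16 °C and -0.49 at 24 °C).

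For each of these 3 genes the lowest values came from storage at 16 and 24 °C, and both lay below the other 3. These are also the libraries in which the epiblast markers had the lowest sum, and in which the white blood cell and egg white markers had their highest sums. Most of the white blood cell sum there came from LCP1 alone, and most of the egg white sum from TF and AVD. The part of any of these cells in these differences and in those of PSMG4 and PSMF1 was not tested. PSMG4 was instead highest in those libraries, with FPKM 13.8 at 4 °C, 20.4 at 16 °C, 24.9 at 24 °C and 18.7 after incubation, against 14.0 in the unstored library (differences of 0.51 at 16 °C and 0.78 at 24 °C). The ratio of PSMG3 to its partner PSMG4 was 2.06 at 4 °C, 0.29 at 16 °C, 0.27 at 24 °C and 1.33 after incubation, against 1.57 in the unstored library. The ratio of PSMG1 to PSMG2 was 0.68 at 4 °C, 0.99 at 16 °C, 1.05 at 24 °C and 0.89 after incubation, against 0.59 in the unstored library. The FPKM of the 4 genes summed to 88.8 at 4 °C, 45.9 at 16 °C, 53.6 at 24 °C and 81.0 after incubation, against 79.5 in the unstored library. Each gene was represented by 1 matched transcript, so a shift to a transcript that was not matched would look the same.

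**Figure D2:**
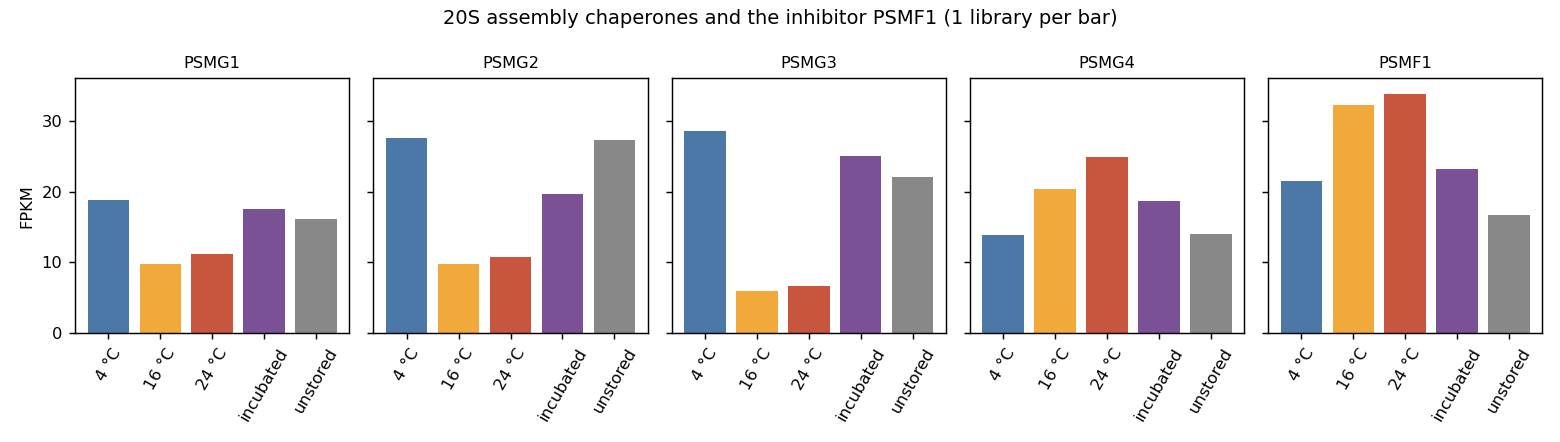
FPKM of the 4 core assembly chaperones PSMG1 to PSMG4 and of the inhibitor PSMF1, with 1 bar per library in the order 4, 16 and 24 °C, incubated and unstored. PSMG1, PSMG2 and PSMG3 are lowest in the bars for 16 and 24 °C, and PSMG4 and PSMF1 are highest there.

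Among the chaperones of the base, PSMD9 and PSMD5 were not lowest at 16 and 24 °C, and PSMD10 was, by smaller differences. With rescaling to equal totals, all 3 were higher at 24 °C than at 4 °C, so that order of PSMD10 depended on the scaling. PSMD9 had FPKM 58.4 at 4 °C, 76.9 at 16 °C, 74.2 at 24 °C and 38.4 after incubation, against 56.9 in the unstored library. It was highest at 16 and 24 °C and lowest after incubation (log2 difference -0.55). PSMD10, also known as the oncoprotein gankyrin in mammals, was the lowest of the 3, with FPKM 14.0 at 4 °C, 11.8 at 16 °C, 12.4 at 24 °C and 14.4 after incubation, against 13.8 in the unstored library (log2 differences -0.20 at 16 °C and -0.14 at 24 °C). PSMD5 had differences of -0.03 at 4 °C, 0.26 at 16 °C, -0.22 at 24 °C and -0.41 after incubation.

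Proteins that open or block the core differed among themselves. PSMF1, an inhibitor of the core in vitro, was the member with the largest positive difference at 16 °C, at 24 °C and after incubation. It had FPKM 21.4 at 4 °C, 32.2 at 16 °C, 33.8 at 24 °C and 23.1 after incubation, against 16.8 in the unstored library, its lowest value. The log2 differences were 0.34 at 4 °C, 0.91 at 16 °C, 0.97 at 24 °C and 0.44 after incubation. PSME3, an activator found in the nucleus, had FPKM 150.2 at 4 °C, 109 at 16 °C, 101 at 24 °C and 116 after incubation, against 136 in the unstored library. PSME4, a large activator known for its role in the mammalian testis, had FPKM 25.3 at 4 °C, 28.7 at 16 °C, 24.6 at 24 °C and 29.4 after incubation, against 22.6 in the unstored library.

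After 7 days at 4 °C, few genes of any kind differed from the unstored library, and the counts over the proteasome genes were near that background. None of the 32 was at least 1.5-fold higher, where 3.96% of all genes were, and none was at least 1.5-fold lower, where 0.857% were. The 22 subunits had differences between -0.11 and 0.27, with a median of 0.08 beside 0.10 for all genes. Genes in the subunits' range of FPKM also had a median of 0.08. With median-ratio size factors the subunit median was -0.05 and with rescaling to equal totals -0.01, so its sign depended on the scaling.

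At 16 °C, 1 of the 32 genes, PSMF1, was at least 1.5-fold higher, where 17.9% of all genes were. At least 1.5-fold lower were 3 genes, PSMG1, PSMG2 and PSMG3, where 20.7% of all genes were. With a pseudocount of 5 in place of 1, PSMG1 was no longer among them (-0.53) and 2 genes were left. Of the 3, PSMG2 and PSMG3 were at least 2-fold lower, where 8.75% of all genes were, and no member was at least 2-fold higher, where 7.65% were. None of the 22 subunits with a PSM name reached 1.5-fold in either direction. ADRM1, a base subunit without a PSM name, was at 1.26. With rescaling to equal totals, 6 members were at least 1.5-fold higher, and 1 of them at least 2-fold. The median of all genes was then 0.08, and the share of all genes at these sizes was not computed under rescaling. Of the 22 subunits, 18 had positive differences, beside 3682 of all 7689 genes and 873 of the 2216 genes in the subunits' range of FPKM. The median of the subunits was 0.14, where that of all genes was -0.04 and that of genes in the subunits' range of FPKM was -0.17. The subunit median was also positive with median-ratio size factors (0.15) and with rescaling to equal totals (0.27). The differences of the subunits had a standard deviation over genes of 0.26, against 0.72 over all genes and 0.67 over the genes in the subunits' range of FPKM.

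At 24 °C, 3 members were at least 1.5-fold higher, PSMF1, PSMG4 and PSMA7, where 22.8% of all genes were. With median-ratio size factors PSMA7 was at 0.56 and 2 members were left. The lower members were PSMG2, PSMG3 and PSMD6, where 20.2% of all genes were at least 1.5-fold lower. PSMD6 fell short of 1.5-fold with a pseudocount of 5 (-0.57) and with rescaling to equal totals (-0.47), which left 2. PSMG2 and PSMG3 again were at least 2-fold lower, where 8.35% of all genes were, and none was at least 2-fold higher, where 10.5% were. PSMF1 lay at that limit, with 0.97 here, 1.01 with a pseudocount of 0.1 and a plain FPKM ratio of 2.01. Of the 22 subunits, 13 had positive and 9 negative differences. Positive were 3970 of all 7690 genes and 832 of the 2216 genes in the subunits' range of FPKM. The median of the subunits was 0.15, beside 0.04 for all genes and -0.20 for genes in the subunits' range of FPKM. It was 0.08 with median-ratio size factors and 0.29 with rescaling. With rescaling, 5 members were at least 1.5-fold higher and 1 of them at least 2-fold. The median of all genes was then 0.17, and the share of all genes at these sizes was not computed under rescaling. By role, the median was 0.16 for the alpha subunits, 0.42 for the beta subunits, 0.15 for the ATPases, -0.21 for the other base subunits and -0.13 for the lid. The lid median was 0.01 with rescaling, so its direction depended on the scaling.

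After 4 h at 37 °C, PSMD6 was the only member at least 1.5-fold lower, where 9.44% of all genes were. None was at least 1.5-fold higher, where 22.1% were. With median-ratio size factors 3 members were at least 1.5-fold lower, and the share of all genes was not computed under that scaling. Of the 22 subunits, 15 had negative differences, and 20 lay below the median of all genes. Negative were 3185 of all 7700 genes and 1287 of the 2216 genes in the subunits' range of FPKM, of which 1511 lay below that median. The subunit median was -0.10 where that of all genes was 0.12, and the lid median was -0.36. The subunit median was negative under both other scalings, at -0.24 with median-ratio size factors and -0.08 with rescaling. The 2216 genes in the subunits' range of FPKM had a median of -0.09, close to that of the subunits.

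**Figure D3:**
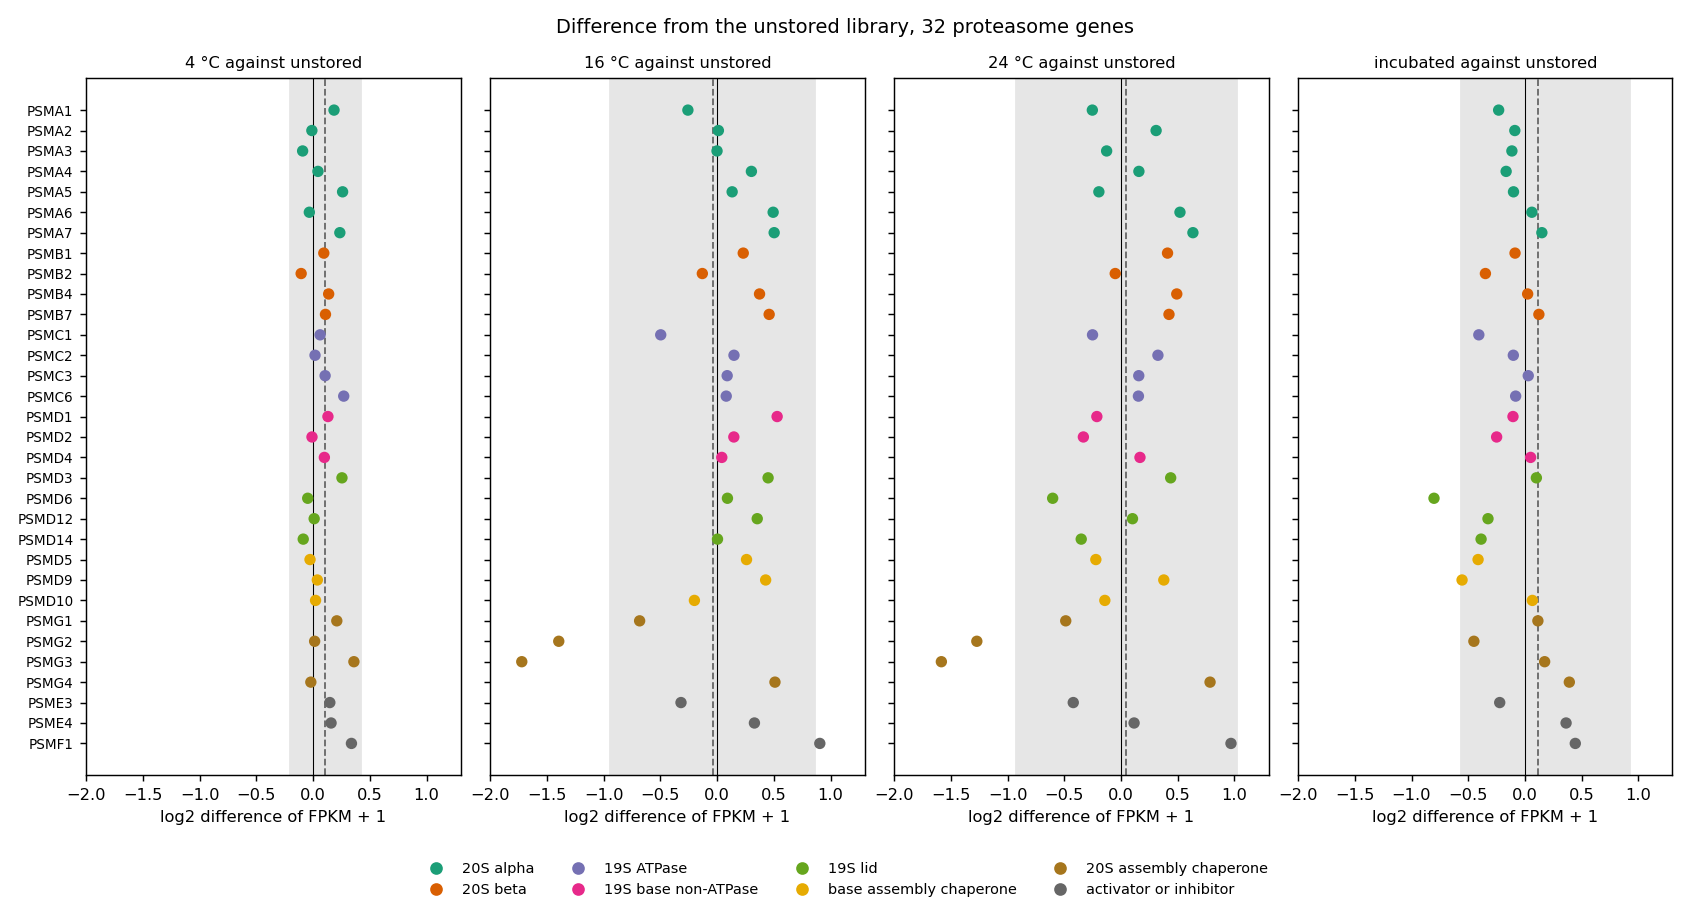
Difference of log2(FPKM + 1) from the unstored library for each of the 32 proteasome genes, coloured by role, in the libraries stored at 4, 16 and 24 °C and incubated. The dashed line is the median of all genes and the grey band spans their central 80%; PSMG2 and PSMG3 lie left of the band at 16 and 24 °C.

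Between the libraries stored at 24 °C and 16 °C, the differences of all genes had a standard deviation of 0.47. Against unstored it was 0.27 at 4 °C, 0.72 at 16 °C and 0.78 at 24 °C. At 24 °C against 16 °C, 2 of the 32 members were at least 1.5-fold lower, a share near the 6.42% of all genes. They were the cap subunits PSMD1 (-0.74) and PSMD6 (-0.69). No member was at least 1.5-fold higher, where 11.7% were. The 4 lid subunits all had negative differences, with a median of -0.30, and the scaffold PSMD2 had -0.48, while the 4 ATPases all had positive ones, with a median of 0.12 (2 of the 4 with median-ratio size factors). The alpha subunits had a median of 0.00 and the beta subunits one of 0.10, beside 0.07 for all genes. The 4 PSMG genes had differences between 0.12 and 0.27.

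Set against the incubated library in place of the unstored one, the difference of PSMG3 was -1.90 at 16 °C and -1.76 at 24 °C, and that of PSMG2 was -0.95 and -0.82. PSMD9 was higher by 0.98 at 16 °C and 0.93 at 24 °C, and PSMD6 by 0.89 at 16 °C and 0.75 at 4 °C. Set against 4 °C, PSMG3 was -2.08 at 16 °C and -1.94 at 24 °C, and PSMG2 -1.41 and -1.28.

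Genes that act with the proteasome but carry other names were taken from 5 lists, of which 27 genes were measured. At least 2-fold higher than unstored were 0 of the 27 at 4 °C, where 0.637% of all genes were, 7 at 16 °C (7.65% of all genes), 6 at 24 °C (10.5%) and 1 after incubation, where 8.48% of all genes were. At least 2-fold lower were 0 at 4 °C, where 0.0909% of all genes were, 1 at 16 °C (8.75% of all genes), 2 at 24 °C (8.35%) and 0 after incubation, where 2.53% of all genes were. With a pseudocount of 5, the genes at least 2-fold higher were 5 at 16 °C and 5 at 24 °C. The median difference of the 27 was 0.07 at 4 °C, 0.23 at 16 °C, 0.31 at 24 °C and 0.09 after incubation.

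The subunits ADRM1 and SEM1, which lack a PSM name, and the maturation factor POMP differed from the PSM genes in part. ADRM1, the base subunit that receives ubiquitin beside PSMD4, had FPKM 78.2 at 4 °C, 194 at 16 °C, 133 at 24 °C and 96.8 after incubation, against 80.6 in the unstored library (differences of 1.26 at 16 °C and 0.71 at 24 °C). The small lid subunit SEM1, listed as SHFM1, had FPKM 23.6 at 4 °C, 16.8 at 16 °C, 15.9 at 24 °C and 16.6 after incubation, against 25.6 in the unstored library. POMP, which guides the beta subunits into the core and is its first substrate, had FPKM 90.6 at 4 °C, 69.8 at 16 °C, 82.1 at 24 °C and 84.0 after incubation, against 95.0 in the unstored library. PAAF1, another chaperone of the base, had FPKM between 5.52 and 8.51.

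Of the regulators bound to the particle, ZFAND5, a proteasome activator in mammals, had FPKM 32.4 at 4 °C, 66.0 at 16 °C, 44.8 at 24 °C and 30.1 after incubation, against 32.2 in the unstored library (1.01 at 16 °C, or 0.93 with a pseudocount of 5). AKIRIN2, which carries proteasomes into the nucleus in human cells, had FPKM 161 at 4 °C, 83.1 at 16 °C, 56.3 at 24 °C and 81.0 after incubation, against 122 in the unstored library (a difference of -1.10 at 24 °C, or -0.97 with rescaling). The deubiquitinase USP14 had differences between -0.13 and 0.16, and UBE3C, TXNL1, PITHD1, ZFAND2A and FBXO7 had differences between -0.76 and 0.69.

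The factor NFE2L1 itself had FPKM 36.1 at 4 °C, 31.4 at 16 °C, 45.7 at 24 °C and 48.7 after incubation, against 36.6 in the unstored library, and its relative NFE2L2 stayed between 19.4 and 26.6. Both bind DNA together with a small MAF protein, and the 3 genes of those partners were higher at 16 and 24 °C. MAFF had FPKM 9.51 at 4 °C, 37.2 at 16 °C, 22.8 at 24 °C and 8.63 after incubation, against 7.83 in the unstored library (differences of 2.11 at 16 °C and 1.43 at 24 °C). MAFG (1.26 and 1.44) and MAFK (1.40 and 1.25) were at least 2-fold higher at both temperatures, at FPKM of 11.7 to 33.4 there, but with a pseudocount of 5 MAFG was under 2-fold, at 0.85 and 0.98. DDI2 and NGLY1, which process NFE2L1 into its active form, had differences between -0.16 and 0.38.

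VCP, the ATPase that pulls ubiquitinated proteins from membranes and complexes, works with the heterodimer of NPLOC4 and UFD1. VCP had FPKM 168 at 4 °C, 198 at 16 °C, 227 at 24 °C and 189 after incubation, against 140.2 in the unstored library. NPLOC4 had FPKM 20.1 at 4 °C, 57.4 at 16 °C, 58.9 at 24 °C and 28.1 after incubation, against 19.1 in the unstored library (differences of 1.54 at 16 °C and 1.58 at 24 °C). UFD1, listed as UFD1L, had differences of 0.81 at 16 °C and 1.26 at 24 °C. For all 3 genes the unstored value was the lowest of the 5 and the value at 24 °C the highest. For NPLOC4 both ends were close, at 0.07 for 4 °C against unstored and 0.04 for 24 °C against 16 °C. Median-ratio size factors shifted the median of all genes by -0.11 and -0.07 in these comparisons. The order of NPLOC4 there thus depended on the scaling.

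Shuttle proteins that bring ubiquitinated proteins to the proteasome differed in both directions. RAD23B had FPKM 99.4 at 4 °C, 28.9 at 16 °C, 31.1 at 24 °C and 80.8 after incubation, against 83.7 in the unstored library (differences of -1.50 at 16 °C and -1.40 at 24 °C). SQSTM1, which also delivers proteins to autophagy, had differences of 1.98 at 16 °C and 2.41 at 24 °C, and UBQLN1 was higher after incubation (1.15, but just under 2-fold with a pseudocount of 5). UBQLN1 had 3 matched rows and SQSTM1 had 4, and with the highest row alone SQSTM1 was 1.21 at 16 °C. Of the ubiquitin genes and their activating enzymes only UBA6 was measured, an activating enzyme, with differences of 0.29 at 4 °C, -0.58 at 16 °C, -0.48 at 24 °C and 0.83 after incubation.

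**Figure D4:**
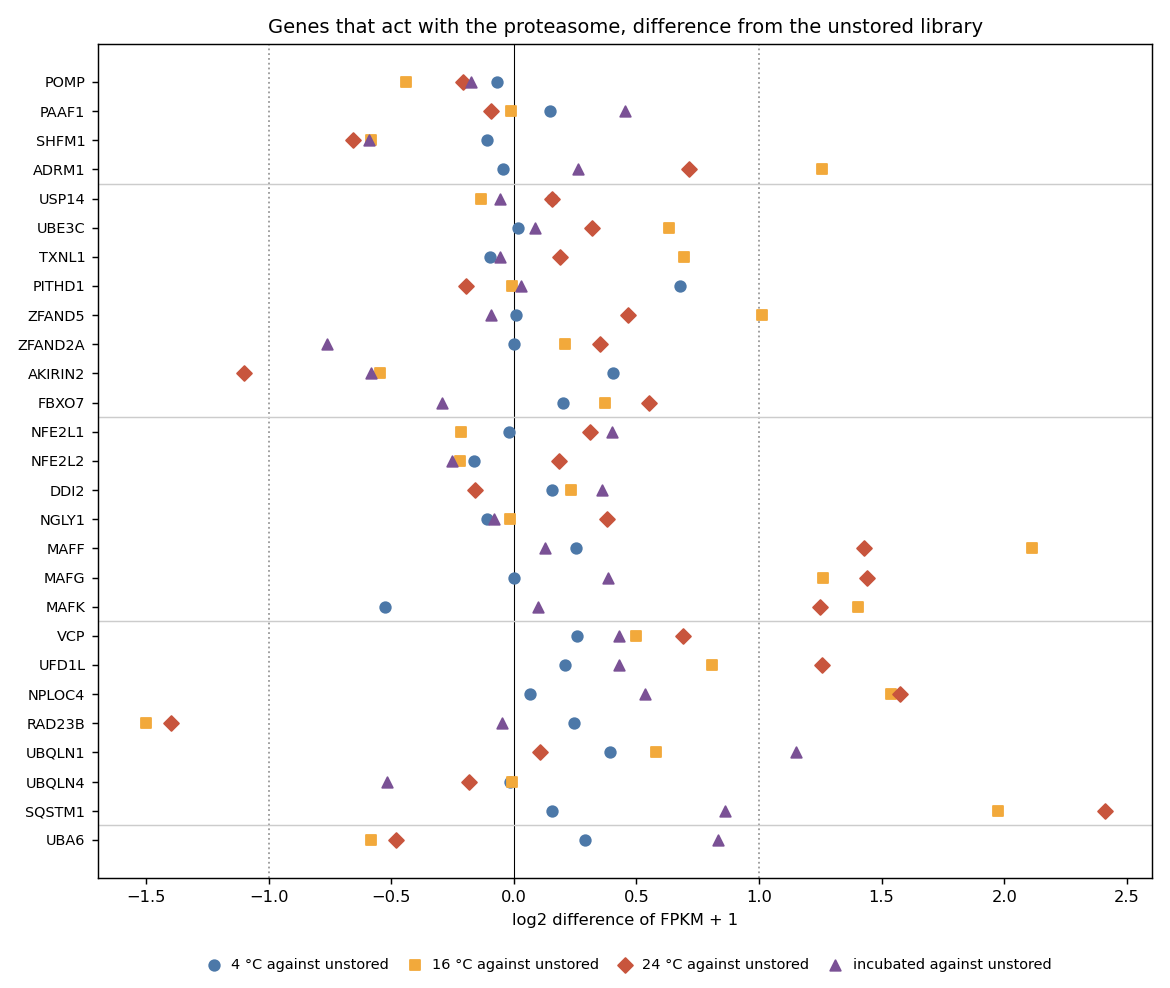
Difference of log2(FPKM + 1) from the unstored library for 27 genes that act with the proteasome, with 1 marker per library (4 °C, 16 °C, 24 °C and incubated); grey lines part the 5 lists and dotted lines mark a 2-fold difference. MAFF, MAFG, MAFK, NPLOC4 and SQSTM1 lie right of the dotted line at 16 and 24 °C, and RAD23B lies left of it.

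The subunits were set beside those of the COP9 signalosome, a complex related in structure to the lid, and of CCT, the cytosolic chaperonin that folds actin and tubulin. At 16 °C the median difference from unstored was 0.14 for the 22 proteasome subunits, -0.24 for 9 COP9 subunits and -0.92 for 7 CCT subunits. At 24 °C the medians were 0.15 for the proteasome, -0.21 for COP9 and -0.95 for CCT. All 7 CCT subunits were at least 1.5-fold lower at both temperatures. So were 1 COP9 subunit at 16 °C and 4 at 24 °C, while PSMD6 at 24 °C was the only such one of the 22 proteasome subunits. Of all genes, 20.7% were that much lower at 16 °C and 20.2% at 24 °C. Outside the 22 stood the lid subunit SEM1, at -0.65 at 24 °C, and the base subunit ADRM1, at 0.71. Genes in the proteasome subunits' range of FPKM, not matched to COP9 or CCT, also lay lower by median (16 °C: -0.17, 24 °C: -0.20). The COP9 medians were close to these 2 values, and the CCT medians were well below them. After incubation the median was -0.10 for the proteasome, -0.31 for COP9 and -0.34 for CCT, beside -0.09 for the genes in that range. At 4 °C the 3 complexes were at 0.08, 0.02 and 0.11 in that order, each negative with median-ratio size factors. No test of these differences is possible with 1 library per condition.

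**Figure D5:**
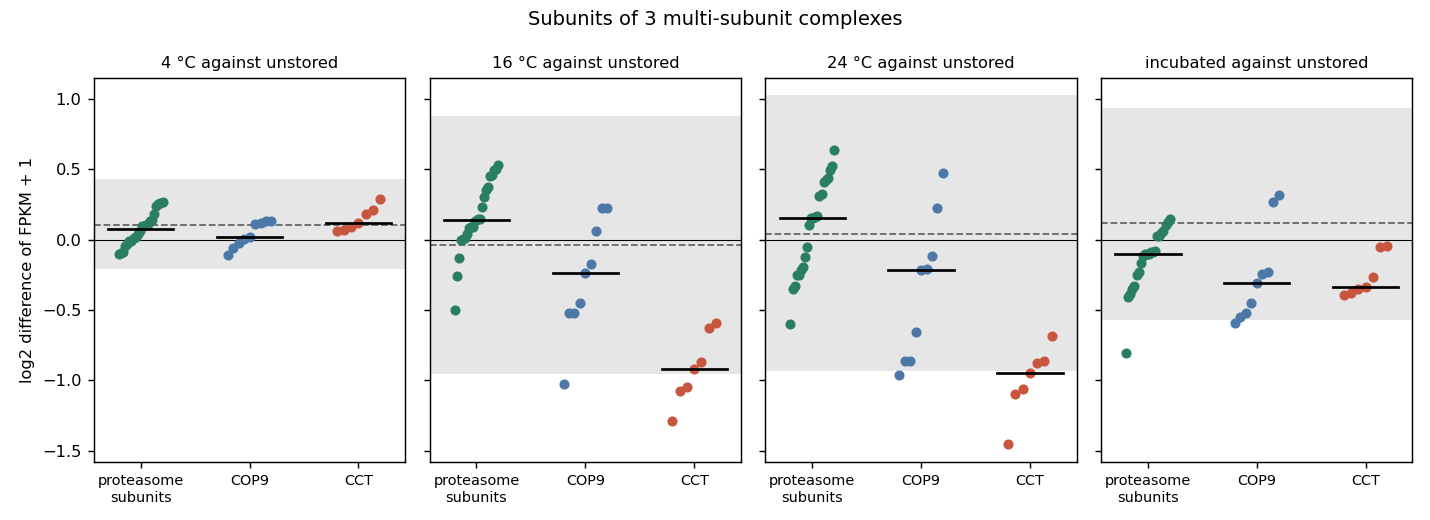
Difference of log2(FPKM + 1) from the unstored library for each subunit of the proteasome (22 genes), the COP9 signalosome (9) and the CCT chaperonin (7), with a bar at the median of each complex. The dashed line is the median of all genes and the grey band spans their central 80%; at 16 and 24 °C the CCT points lie below those of most proteasome subunits.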

How the data were processed

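The authors deposited FPKM values for 32188 RefSeq transcript rows per library, per the file headers. The submitters' processing notes name TopHat2 2.0.8, Cufflinks 2.0.2 and galGal4 without roles. The annotation and any scaling between libraries are unstated. FPKM hold no counts, so depth and its precision are unknown. FPKM summed to between 333528 and 389061 per library.

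Symbols came from a RefSeq table of GRCg7b by accession without version (12609 rows, 39.2%), and 5 of the 32 members matched with the same version. Rows of a symbol were summed. SEM1 and UFD1 were found under older symbols. Sequences and promoter motifs were not analysed here.

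Differences of log2(FPKM + 1) were computed with Python 3.11.15 and pandas 2.3.3 and the code was tested on simulated data. With 1 library per group there was no test. The alternatives stand in the closing section. The members and lists were chosen with earlier results of these data known. Given in full were the 3 highest and 3 lowest members per comparison with unstored, the most and least abundant of each role, and members at least 1.5-fold different. Other genes at least 2-fold different or fixed by name were given in full, by differences or by range. PSMA1, VCP, UBA6 and the genes of the direct comparisons between treated libraries were added after their values were seen.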

Additional observations from a re-analysis of the deposited data

How the results depend on the processing

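The medians and counts were recomputed under 8 alternatives: pseudocounts of 0.1 and 5, no filter, a filter on mean FPKM of at least 5, size factors by median ratios, totals rescaled to 1000000, the highest row per gene, and genes with 1 matched accession. Of 304 recomputed medians and counts, 295 stayed within 0.25 log2 units or 1.5 times of the value given. Part of this agreement was fixed in advance. Each member had 1 matched row and passed every filter. The filters, the highest row and the genes with 1 matched accession therefore could not change a member's difference. Size factors shifted the median of all genes by -0.11 at 4 °C and -0.12 after incubation, and rescaling shifted it by 0.12 at 16 °C and 0.13 at 24 °C. These shifts were smaller than the 0.25 units allowed, so scaling could hardly move a median out of that range. Those of the 304 that moved were all counts. With rescaling, the members at least 1.5-fold higher were 6 at 16 °C and 5 at 24 °C, those at least 2-fold higher were 1 at 16 °C and 1 at 24 °C, and the other proteasome-linked genes at least 2-fold lower at 24 °C were 1. With a pseudocount of 0.1, 1 member was at least 2-fold higher at 24 °C. With size factors, 3 members were at least 1.5-fold lower after incubation. The linked genes at least 2-fold higher after incubation were 0 with a pseudocount of 5 and 0 with genes of 1 matched accession, which leave UBQLN1 out. The causes of these shifts were not tested. Shares of all genes were computed only with the main settings, so the counts under the alternatives have no such share beside them. With a pseudocount of 5, which shrinks low genes by construction, PSMG3 was -1.30 at 16 °C and -1.21 at 24 °C. No called value changed sign. A pseudocount cannot change a sign, and the scaling shifts given above were far smaller than a 1.5-fold difference. For the members, no reversal was therefore possible. No paired analysis was possible because each condition had 1 library, and no replicate could be left out.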

Other observations

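Ranks within a library do not depend on scaling between libraries. Among the 7733 genes compared, the median subunit stood at the 93.2 percentile of FPKM at 4 °C, 94.6 at 16 °C, 95.4 at 24 °C and 92.8 after incubation, against 93.2 in the unstored library. The summed FPKM of the 4 core assembly chaperones was 0.023% of the library at 4 °C, 0.014% at 16 °C, 0.016% at 24 °C and 0.022% after incubation, against 0.022% in the unstored library.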
